A study of Homo sapiens with 16 samples.

Results

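The integrated stress response and the unfolded protein response were read here through 44 genes of the 26485 in the count table. The 44 were chosen by symbol from a list of known ATF4 targets and endoplasmic reticulum (ER) chaperones, with no measured value in the rule but with earlier results of these data known, and all 44 were present and passed the low-count filter in both cell lines. They form an ATF4 arm of 27 genes, an ER chaperone arm of 15 genes, and 2 ER stress sensors, ERN1 and EIF2AK3. RNA was sequenced from PC3 prostate cancer cells and HeyA8 ovarian cancer cells, each a single established line labelled wild type. Each line was mock treated or transfected with 1 of 3 small interfering RNAs (siRNAs): siNT1, the control siRNA; siGGGGGC, named for its GGGGGC seed and labelled siMxy in the sample titles; or siCAG, whose strand sequence was not given in the sources used here. The labels give the siRNA amount as 1 nM, delivered with the lipid RNAiMAX, and RNA was taken at 24 h and 48 h. Each line, siRNA and time point had 1 library, 16 in all, so the 24 h and 48 h libraries served as the 2 replicates of a condition. The study's methods describe duplicate wells of a reverse transfection lysed at 24 h or, after a change of medium, at 48 h, without naming mock or siCAG. No libraries here share line, siRNA and time, so the spread between wells was not measured by itself. With terms for siRNA and time, the p-values rest on how far the change from 24 h to 48 h differed between the conditions. Assigned counts ran from 27937092 to 29971612 per PC3 library and from 29128446 to 31790209 per HeyA8 library.

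The lineage of each line was checked against marker genes, in normalized counts scaled over all 16 libraries. HOXB13, a prostate transcription factor, ran from 2279.7 to 13809.9 in PC3 and from 10.6 to 84.6 in HeyA8, while the androgen-driven prostate genes KLK3 and KLK2 were at 0 in every library of both lines. PAX8, a Mullerian lineage factor, ran from 1984.9 to 7483.4 in HeyA8 and from 41.8 to 178.7 in PC3. The T cell gene CD3E was at 0 in all 16 libraries, and the 3 leukocyte markers summed to at most 55.1 in PC3 and 20.5 in HeyA8. In both lines the lineage marker was lowest under siGGGGGC, HOXB13 at 2778.4 and 2279.7 and PAX8 at 2554.2 and 1984.9, and any part of this in the results below was not tested. In these bulk samples, fewer cells of a kind and less RNA per cell cannot be told apart.

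One pair of libraries stood apart before any test. Across the genes tested, the 24 h and 48 h libraries of a condition correlated at 0.9721 or more (Pearson, log scale, across genes), except HeyA8 with siCAG at 0.926. Of the 44 members, 16 differed more than 2-fold between those siCAG libraries, whereas in the other 7 conditions between 0 and 5 did. The share of all genes past 2-fold is not given, so this describes the library pair and not the members in particular. HeyA8 siCAG values are therefore given at each time point below.

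The integrated stress response is set off by kinases that phosphorylate the initiation factor eIF2, which slows protein synthesis while the ATF4 mRNA is translated more. ATF4 then switches on genes for amino acid uptake and synthesis, tRNA charging and, through DDIT3 (CHOP), cell death. The unfolded protein response senses misfolded protein in the ER lumen through PERK (EIF2AK3), IRE1 (ERN1) and ATF6, and PERK is itself an eIF2 kinase, so the responses share the ATF4 arm, whereas the ER chaperone arm is driven mainly by ATF6 and by the XBP1 mRNA that IRE1 splices.

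The promoters of the arms are shown first, because they describe the sets by a property that the counts did not supply. The rule chose known ATF4 targets and ER chaperones, so the motif shares may not be independent of it. In the RefSeq promoter windows on GRCh38.p14, from 250 bases before to 50 bases after the start, 41 of the 44 members had an entry. The ER stress element, read on both strands as CCAAT, any 9 bases, then CCACG, was in 6 of the 15 ER chaperone promoters, in 0 of the 24 ATF4 arm promoters and in 25 of all 27303 promoters (0.0916%). The core of the C/EBP-ATF element, read as TGATGNAA on both strands, was in 8 of 24 ATF4 arm promoters, in 1 of 15 ER chaperone promoters and in 1217 of all promoters (4.46%). No member promoter held both motifs. Examples follow, 30 bases each, 5′ to 3′ on the strand of the gene, with the match in capitals. A match read on the opposite strand appears as its reverse complement, and a match is a description of the letters, not of bound factor.
HSPA5, ER stress element, chr9:125241385-125241414, minus strand: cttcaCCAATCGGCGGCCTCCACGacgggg
HSP90B1, ER stress element, chr12:103930211-103930240, plus strand: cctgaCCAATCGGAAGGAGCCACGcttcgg
HSP90B1, ER stress element, chr12:103930316-103930345, plus strand: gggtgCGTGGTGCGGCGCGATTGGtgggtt
CALR, ER stress element, chr19:12938379-12938408, plus strand: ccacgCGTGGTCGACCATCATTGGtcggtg
PDIA6, ER stress element, chr2:10812847-10812876, minus strand: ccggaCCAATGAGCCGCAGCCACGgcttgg
CRELD2, ER stress element, chr22:49918549-49918578, plus strand: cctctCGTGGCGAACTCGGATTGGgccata
XBP1, ER stress element, chr22:28800597-28800626, minus strand: gctggCCAATCGCGGAGGGCCACGaccgta
ASNS, C/EBP-ATF core, chr7:97872458-97872487, minus strand: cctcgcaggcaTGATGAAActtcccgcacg
CHAC1, C/EBP-ATF core, chr15:40953251-40953280, plus strand: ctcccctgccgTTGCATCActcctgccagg
CEBPG, C/EBP-ATF core, chr19:33374060-33374089, plus strand: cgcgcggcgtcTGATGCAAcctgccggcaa
ATF3, C/EBP-ATF core, chr1:212565205-212565234, plus strand: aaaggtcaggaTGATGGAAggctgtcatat
HSP90B1 carried the ER stress element at 2 places. HERPUD1, a membrane protein of ER-associated degradation, was the ER chaperone arm gene with the C/EBP-ATF core. Neither sensor promoter held either motif.

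In mock cells 3 ER chaperones had the highest levels per length of the 44 genes. Levels are given per length as RPKM, reads per kilobase of the gene length in the file, scaled to library depth (mean ± SD, n = 2 time points). CALR, a calcium-binding lectin chaperone, stood at 641.9 ± 108 in PC3 and 529.6 ± 75.7 in HeyA8. HSP90B1 (GRP94), the ER form of HSP90, stood at 427.2 ± 58 and 468.3 ± 83.4. HSPA5 (BiP), the main ER HSP70 and the brake on the sensors, stood at 159.4 ± 26.7 and 284 ± 81.2. By this measure no ATF4 arm gene reached the level of any of these in its line. At the other end, ATF3, a stress-induced repressor, stood at 0.1745 ± 0.00311 in PC3 and 0.2164 ± 0.0146 in HeyA8, and the level of NUPR1, a stress-induced chromatin protein, was 0.133 ± 0.101 in HeyA8.

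**Figure D1:**
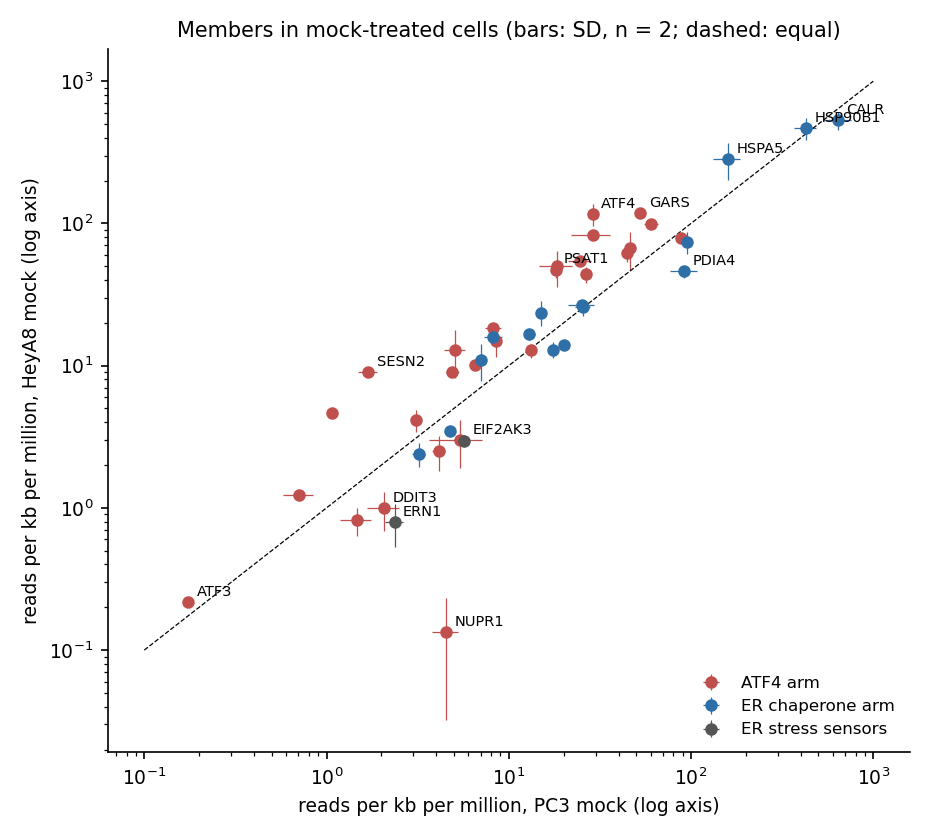
Levels of the 44 genes in mock cells, in RPKM (reads per kilobase, depth scaled) on log axes, with PC3 on the horizontal and HeyA8 on the vertical axis. Each point is 1 gene at the mean of its 24 h and 48 h libraries, coloured by arm, with bars for the SD and a dashed line for equal levels. CALR, HSP90B1 and HSPA5 lie at the top in both lines, ATF4 lies on the HeyA8 side and NUPR1 far on the PC3 side.

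The mock libraries of the lines were then compared. ATF4 itself (chr22:39520559-39522686, plus strand, hg38) was at an RPKM of 28.98 ± 0.304 in mock PC3 and 116.3 ± 20.6 in mock HeyA8, a log2 difference of -2.14 (SE 0.34, adjusted p = 0.000466, edgeR's quasi-likelihood test over all 16 libraries with Benjamini-Hochberg adjustment over all genes). Of the 44 members, 11 were called lower in mock PC3 than in mock HeyA8 at an adjusted p under 0.05, where 19.9% of all genes tested were, and 5 were called higher, where 25.6% were. In the ATF4 arm 10 of 27 were lower and 2 higher, and many genes outside the list differed between the lines as well. The lower genes were the transcription factors ATF4, CEBPB (-1.93) and CEBPG (-0.85), the leucine sensor SESN2 (-2.53), the eIF2 phosphatase subunit PPP1R15A (-1.48), the transporter chain SLC3A2 (-1.43), the serine and one-carbon enzymes PSAT1 (-1.52) and MTHFD2 (-1.18), the glycyl-tRNA synthetase GARS (-1.14), the tRNA exporter XPOT (-0.68) and the BiP co-chaperone DNAJC3 (-0.67). The higher genes were NUPR1 (4.31), ERN1 (1.56), EIF2AK3 (1.29), DDIT3 (1.11) and the disulfide isomerase PDIA4 (1.09). The median log2 difference was -0.77 over the ATF4 arm and 0.27 over the ER chaperone arm, against 0.09 over all genes tested. When 1 mock library was left out, fewer members were called lower and no more were called higher.

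The control siRNA was compared with mock to measure how these genes differed between siNT1 and mock cells. The parts of lipid, duplex and siNT1 sequence in this difference were not tested. All values from here are normalized counts, scaled by TMM within a line, and comparisons of siGGGGGC and of siCAG share the same siNT1 libraries, which also serve here. In PC3, ATF3 was at 70.01 and 71.85 in the mock libraries at 24 h and 48 h and at 595.1 and 486 in the siNT1 libraries, a log2 fold change of 2.91 (SE 0.25, adjusted p = 0.0159). SESN2 was at 178 and 211.7 with mock and at 586.9 and 497.3 with siNT1, a log2 fold change of 1.47 (SE 0.198, adjusted p = 0.0417). For both genes each siNT1 library was above each mock library. They were the 2 of 44 members called higher, where 0.205% of all genes tested were higher and 0.0264% lower, and no member was called lower. Leaving out either mock or either siNT1 library removed both calls, with an adjusted p of 0.0879 to 0.287 for ATF3 and 0.363 to 0.416 for SESN2.

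Counting ATF3 and SESN2, 39 of the 44 members had a fold change above 0 in PC3. The ER chaperone arm had 15 of 15 above 0 with a median log2 fold change of 0.39, the ATF4 arm had 22 of 27 above 0 with a median of 0.23, and the median of all genes tested was -0.01. HSPA5 was at 23055.6 and 18185.9 with mock and 38719.5 and 30121.7 with siNT1 (log2 fold change 0.74, adjusted p = 0.156). In HeyA8, 0 of 44 members and 0% of all genes tested were called, with 177 genes at an unadjusted p under 0.05, 2 of them members. DESeq2 called 0 members, but edgeR on the mock and siNT1 libraries alone called 2 lower and 15 higher, where 5.05% and 6.79% of all genes tested were, and in PC3 that fit called 0 lower and 9 higher, where 0.664% and 1.07% were, and DESeq2 called 0 lower and 8 higher. The share of all genes that DESeq2 called is not given, here or below, so its counts do not set the members apart from other genes. In HeyA8 the ER chaperone arm had 14 of 15 above 0 with a median of 0.30, and the ATF4 arm had a median of 0.09. Arm medians and called members against mock are therefore given below for siCAG in both lines and siGGGGGC in PC3, and arm medians alone for siGGGGGC in HeyA8.

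In HeyA8 with siCAG the arm medians had opposite signs. The called genes were higher in the ATF4 arm and lower for 2 of 15 ER chaperone genes and the PERK gene EIF2AK3, while ATF4 itself, which was not called, had values above the control. Of the 44 members, 7 were called higher than with siNT1, where 2.88% of all genes tested were, and 3 were called lower, where 4.93% were, so the lower count is near the share of all genes. DESeq2 called 13 higher and 10 lower, with no share of all genes to set beside these counts. On the siNT1 and siCAG libraries alone, edgeR called 4 higher and 3 lower, where 1.10% and 3.21% of all genes tested were. The 7 higher genes were all in the ATF4 arm and the 3 lower ones were HSP90B1, SDF2L1 and EIF2AK3. The median log2 fold change was 1.09 over the ATF4 arm, with 22 of 27 above 0, and -0.81 over the ER chaperone arm, with 14 of 15 below 0, against -0.01 over all genes tested.

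Among the transcription factors, DDIT3 (CHOP, chr12:57516588-57520517, minus strand), the pro-apoptotic partner of ATF4, was at 139.1 and 250.9 with siNT1 at 24 h and 48 h and at 744.3 and 744.7 with siCAG. It rose by a log2 fold change of 1.99 (SE 0.304, adjusted p = 0.0192), and the siCAG libraries lay above every other HeyA8 library. CEBPB, which pairs with ATF4 at C/EBP-ATF elements, was at 1216.2 and 720.2 with siNT1 and 2360.6 and 2011.8 with siCAG (log2 fold change 1.20, SE 0.265, adjusted p = 0.0449). NUPR1 was at 7.73 and 6.52 with siNT1 and 103.1 and 24.82 with siCAG (2.91, SE 0.675, adjusted p = 0.0496). The groups did not overlap for any of the 3, though NUPR1 rested on few counts. ATF4 itself was at 9865.4 and 10696.2 with siNT1 and 33682.2 and 18456.7 with siCAG, a log2 fold change of 1.33 (SE 0.324) that narrowly missed the threshold at an adjusted p of 0.0538.

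Among the stress-output genes, DDIT4 (REDD1, chr10:72273919-72276039, plus strand), an inhibitor of mTORC1, had the largest change of the 44. It was at 166.2 and 283.5 with siNT1 and at 4919.5 and 2169.7 with siCAG, a log2 fold change of 4.21 (SE 0.856, adjusted p = 0.0379). SESN2 was at 1527.2 and 1191.7 with siNT1 and 4843.9 and 2905.5 with siCAG (1.498, SE 0.296, adjusted p = 0.0357). In both genes the 24 h siCAG library was the highest of the 8 HeyA8 libraries and the 48 h siCAG library came next. The other called members were SLC7A11, the cystine transporter chain, and STC2, a secreted glycoprotein. SLC7A11 was at 2457.4 and 1180.9 with siNT1 and 6035 and 9103.7 with siCAG (2.15, SE 0.42, adjusted p = 0.035) and at 4366.1 and 2608.6 with mock, against which the log2 fold change was 1.19 with an adjusted p of 0.11. It was the one amino acid supply gene with a higher siCAG value at 48 h than at 24 h. STC2 was at 2623.6 and 2249.8 with siNT1 and 8296.3 and 5911.3 with siCAG (1.53, SE 0.212, adjusted p = 0.0149).

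In the ER chaperone arm, HSP90B1 (chr12:103930334-103947930, plus strand) fell from 34497.4 and 50115.4 with siNT1 to 15011.8 and 16559.1 with siCAG (log2 fold change -1.41, SE 0.217, adjusted p = 0.0192). SDF2L1, a stabiliser of the BiP cycle, fell from 519.7 and 484.5 to 200.3 and 88.38 (-1.86, SE 0.351, adjusted p = 0.0324), but was not called against mock at 340.9 and 288 (-1.17, adjusted p = 0.0803). The siCAG libraries of both genes lay below all 6 other HeyA8 libraries. HSPA5 was at 31685.5 and 52310.9 with siNT1 and 21676.1 and 22156.5 with siCAG, and CALR at 29048.4 and 40756.5 against 19904.7 and 17479.6. Neither was called, and in both the siCAG libraries were the lowest of the line.

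The 2 sensors had log2 fold changes of opposite sign. EIF2AK3 (PERK, chr2:88556741-88627576, minus strand) was at 424.1 and 580.1 with siNT1 and at 66.77 and 125.1 with siCAG, a log2 fold change of -2.42 (SE 0.281, adjusted p = 0.00872). ERN1 (IRE1, chr17:64043030-64130142, minus strand) was at 93.7 and 108.6 with siNT1 and 287.7 and 275.1 with siCAG, a log2 fold change of 1.48 with an adjusted p of 0.0596. The siCAG libraries were the lowest of the line for EIF2AK3 and the highest for ERN1.

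These calls changed when a library was left out. Leaving out either siNT1 library left 0 members called in either direction. The ATF4 arm median was 0.20 without the 24 h siCAG library and 1.499 without the 48 h siCAG library. More members were called in both of these fits, but the share of all genes called in them is not given. Against mock in place of siNT1, 8 members were higher (3.44% of all genes tested) and 2 lower (5.53%). The 8 were DDIT4 (4.82), NUPR1 (3.18), DDIT3 (2.18), SESN2 (2.103), STC2 (1.88), ERN1 (1.66), CEBPB (1.41) and PPP1R15A (1.23), and the 2 were EIF2AK3 (-2.05) and HSP90B1 (-1.24), so SLC7A11 and SDF2L1 lost their calls. The ER chaperone arm median against mock was -0.47 and the ATF4 arm median 1.06. Of the 3 mesenchymal markers (scaled over all 16 libraries), FN1 was at 310661.7 and 369911.1 with siCAG against 166180.3 and 76857.2 with siNT1, CDH2 at 5351.8 and 6462.9 against 4470.3 and 4623.5 and VIM at 239829.3 and 139578.3 against 207102.1 and 205988.3, and their part in the result was not tested.

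**Figure D2:**
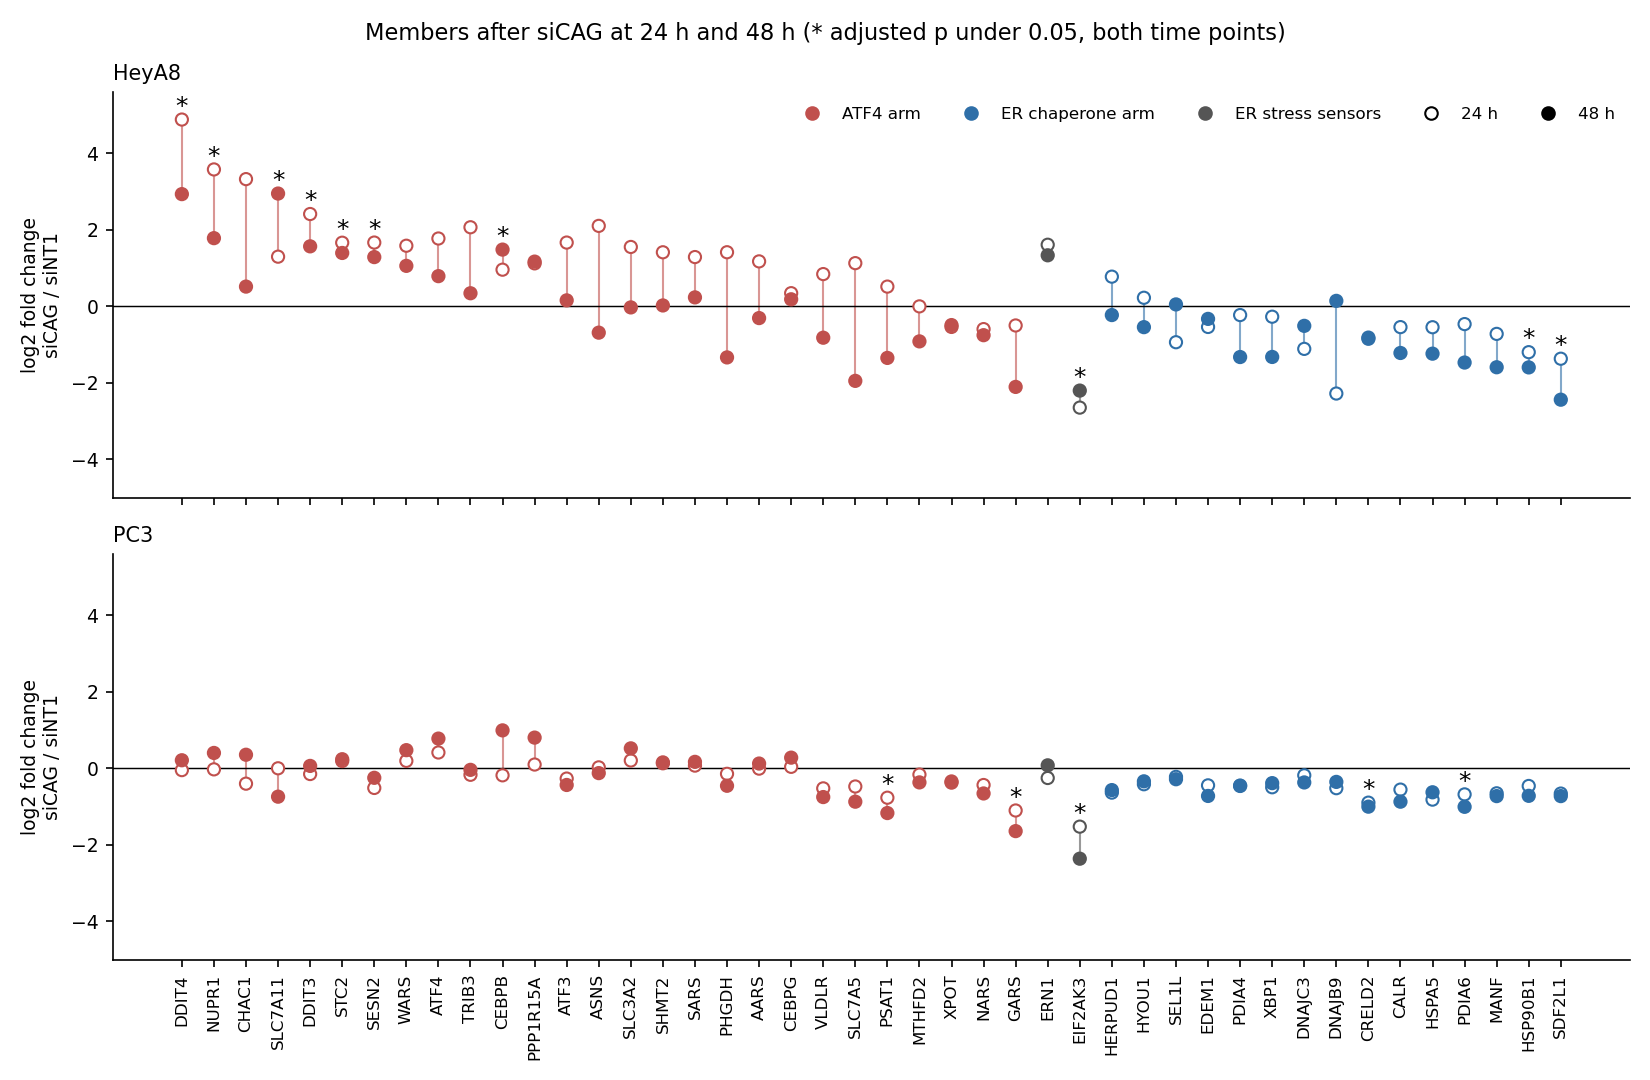
Log2 fold change of siCAG against siNT1 on the vertical axis for each of the 44 genes in HeyA8 and PC3, from log2(normalized count + 1), with open circles for 24 h, filled circles for 48 h and a star for an adjusted p under 0.05 over both times. In HeyA8, in the upper panel, the ATF4 arm in red lies mostly above 0 at 24 h and on both sides of 0 at 48 h, while the ER chaperone arm in blue lies mostly below 0 at both times.

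The HeyA8 siCAG values are given next at each time point, where the single-library differences have no test. At 24 h, 23 of 27 ATF4 arm genes were above siNT1, 19 of them more than 2-fold, with a median of 1.41, and the ER chaperone arm had a median of -0.55 with 4 of 15 more than 2-fold lower. At 48 h, 16 of 27 ATF4 arm genes were above siNT1, 9 of them more than 2-fold, with a median of 0.18, and the ER chaperone arm had a median of -1.22 with 8 of 15 more than 2-fold lower. The gap between the arm medians was 1.96 at 24 h and 1.40 at 48 h. The median over all genes tested was -0.005 at 24 h and 0.012 at 48 h. The share of all genes past 2-fold is not given, so the 2-fold counts do not set the members apart from other genes.

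The roles within the ATF4 arm had different values in time, again with 1 library at each point and no test. The 6 transcription factors were all above siNT1 at both times, with medians of 1.72 and 1.13, and so were the 5 feedback and stress-output genes, with medians of 2.07 and 1.17. The metabolic genes were not. Amino acid supply had 4 of 4 above siNT1 at 24 h and 1 of 4 at 48 h, and the serine and one-carbon enzymes had 3 of 4 and then 1 of 4. SLC7A5, the large neutral amino acid transporter, was at 13928.2 and 13016.6 with siNT1 but at 30422.2 and then 3367.2 with siCAG. ASNS, asparagine synthetase, was at 1073.2 and 1338.4 with siNT1 and at 4606.2 and then 829.1 with siCAG. PHGDH, the first enzyme of serine synthesis, was at 3122 and 3062.4 with siNT1 and at 8307.1 and then 1211.4. All 3 were the highest of the 8 HeyA8 libraries at 24 h and the lowest at 48 h with siCAG. CHAC1, a glutathione-degrading enzyme, went from 811.1 at 24 h to 115.2 at 48 h, against 80.17 and 80.39 with siNT1.

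In PC3, 5 members fell with siCAG against siNT1 and none was called higher, where 1.16% of all genes tested were called lower and 0.0396% higher. At an unadjusted p under 0.05 in either direction there were 17 of 44 members and 2037 of the 15136 genes tested. The counts depended on the fit: DESeq2 called 8 lower and 0 higher, and edgeR on the siNT1 and siCAG libraries alone called 19 lower and 1 higher, where 11.1% and 4.92% of all genes tested were. The 5 were EIF2AK3, GARS, PSAT1, PDIA6 and CRELD2, from all 3 parts of the list. The ER chaperone arm median was -0.59, with 15 of 15 below 0, and the ATF4 arm median was -0.04, against -0.01 over all genes tested. Against mock the ER chaperone arm median was -0.03 with siCAG and 0.39 with siNT1. The siCAG values against mock went both ways, from PDIA6 at -0.61 and CRELD2 at -0.59 to DNAJB9 at 0.71. By time, the siCAG arm median against mock was -0.01 at 24 h and -0.20 at 48 h. The 4 epithelial markers (scaled over all 16 libraries) did not share 1 pattern. The adhesion gene CDH1 was at 220.9 and 215.9 with siCAG, 723.1 and 580.6 with siNT1 and 263.6 and 252.3 with mock, and EPCAM was at 789.9 and 594.7, 862.9 and 683, and 385.3 and 472.2 in the same order. The keratin genes were higher with siCAG than with siNT1, KRT8 at 6445.8 and 7114.4 against 5323.9 and 5032.4 and KRT18 at 7428.3 and 8227.6 against 6206.1 and 6688.7. The part of these markers in the result was not tested.

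EIF2AK3 was at 854.1 and 868.9 with mock, 986 and 960.7 with siNT1 and 342.5 and 186.2 with siCAG, a log2 fold change against siNT1 of -1.92 (SE 0.247, adjusted p = 0.0121). GARS (chr7:30594565-30634032, plus strand) was at 6471 and 6306.5 with siNT1 and 3016.9 and 2023.2 with siCAG (-1.36, SE 0.172, adjusted p = 0.011). PSAT1, an aminotransferase of serine synthesis, was at 2079.7 and 2056.9 with siNT1 and 1222 and 915 with siCAG (-0.96, SE 0.161, adjusted p = 0.0356). In all 3 the siCAG libraries were the lowest of the 8 PC3 libraries.

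PDIA6, a disulfide isomerase, was at 12214.6 and 12783.5 with siNT1 and 7623.5 and 6370.5 with siCAG (-0.84, SE 0.15, adjusted p = 0.048). CRELD2, a secreted ER factor, was at 1110.1 and 869.2 with siNT1 and 596 and 433.8 with siCAG (-0.95, SE 0.164, adjusted p = 0.0424). Both lay below every other PC3 library as well. HSPA5 was at 38719.5 and 30121.7 with siNT1, 21976.5 and 19526.5 with siCAG and 23055.6 and 18185.9 with mock. Its siCAG libraries overlapped mock and lay below siNT1 (log2 fold change -0.72, adjusted p = 0.084).

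ATF4 in PC3 was at 3470 and 3952.6 with siNT1 and 4626 and 6776.5 with siCAG, with a log2 fold change of 0.61 and an adjusted p of 0.21, and DDIT3 was at 782.8 and 886.7 against 706.3 and 926.9, where the groups overlapped. Against mock, siCAG gave 5 higher members, where 0.826% of all genes tested were higher, and 3 lower, where 1.76% were. The 5 were ATF3 (2.56), SLC3A2 (1.37), PPP1R15A (1.23), SESN2 (1.09) and DDIT3 (1.00), and the 3 were EIF2AK3 (-1.75), PSAT1 (-1.28) and GARS (-0.92). ATF3 and SESN2 were also the members called higher with siNT1 against mock. Fewer members were called against siNT1 when any 1 siNT1 or siCAG library was left out, and leaving out either 48 h library left none. EIF2AK3 was the member called lower in both lines against both controls.

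**Figure D3:**
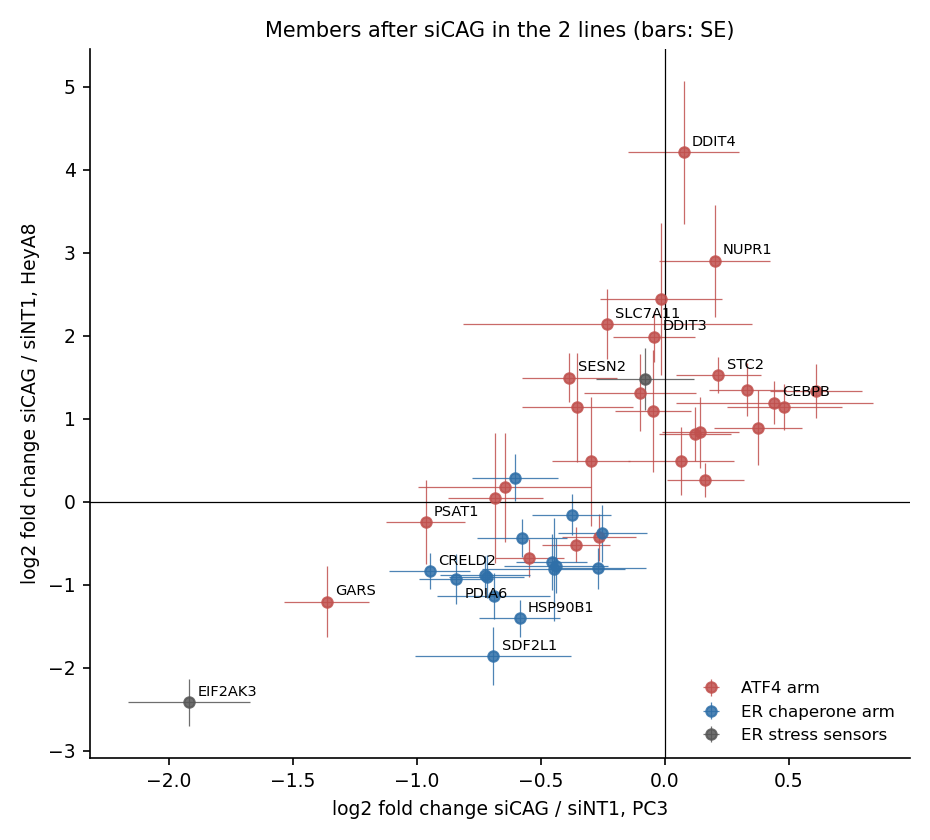
Log2 fold change of siCAG against siNT1 in HeyA8 on the vertical axis and PC3 on the horizontal axis, from the edgeR fits over both time points, with 1 point per gene coloured by arm and bars for the SE. EIF2AK3 lies low in both lines, at -1.92 in PC3 and -2.42 in HeyA8, and DDIT4 and DDIT3 lie far out along the HeyA8 axis near 0 in PC3.

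The siCAG responses of the lines were then set against each other in the 16-library fit, with a term for the difference between them. The PC3 response minus the HeyA8 response was -2.14 on the log2 scale for DDIT3 (SE 0.351, adjusted p = 0.0268) and -1.997 for SESN2 (SE 0.367, adjusted p = 0.041). They were the 2 of 44 members called lower, where 0.252% of all genes tested were lower and 0.384% higher, and no member was called higher. Both calls depended on the control, since siNT1 was above mock by 1.04 for DDIT3 and 1.47 for SESN2 in PC3 but by 0.19 and 0.61 in HeyA8. With mock as the control the differences were -1.30 for DDIT3 (adjusted p = 0.107) and -1.13 for SESN2 (adjusted p = 0.171), and 0 members were called in either direction, where 0.264% of all genes tested were lower and 0.636% higher. Against siNT1, STC2 (difference -1.42, adjusted p = 0.0547), NUPR1 (-2.92, adjusted p = 0.0629) and DDIT4 (-4.26, adjusted p = 0.0731) did not pass. The median difference was -0.87 over the ATF4 arm, with 24 of 27 below 0, and 0.07 over the ER chaperone arm, against -0.13 over all genes tested. The EIF2AK3 responses of -1.92 in PC3 and -2.42 in HeyA8 were not called different (0.39, adjusted p = 0.696). The 2 calls were lost without any 1 of the PC3 siNT1, PC3 siCAG or HeyA8 siNT1 libraries. More members were called lower without either HeyA8 siCAG library, but the share of all genes called in those fits is not given.

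The coding sequences of the members were searched for runs of CTG, because CTG is the reverse complement of the CAG in the siRNA's name. On the GENCODE v44 canonical transcripts, all 44 members had a coding sequence, 5 of them through an older symbol. A run of at least 4 CTG was in 4 members, against 2.44% of the 13901 tested genes with such a transcript. EIF2AK3 had a run of 8 CTG, a length that 0.101% of those genes reach. GARS and ERN1 had 5, and CRELD2 had 4. TXNDC5, an ER disulfide isomerase from the other pathway genes below, had 6. Each run is shown within 30 bases of its coding exon on hg38, 5′ to 3′ on the strand of the gene, with the run in capitals.
EIF2AK3, chr2:88627209-88627238, minus strand: gcgCTGCTGCTGCTGCTGCTGCTGCTGggg
TXNDC5, chr6:7910693-7910722, minus strand: actgcgCTGCTGCTGCTGCTGCTGggccat
GARS, chr7:30594960-30594989, plus strand: cgccgctCTGCTGCTGCTGCTGccgccccg
ERN1, chr17:64129992-64130021, minus strand: ccggcggCTGCTGCTGCTGCTGacgctgct
CRELD2, chr22:49918803-49918832, plus strand: ctgccgcttCTGCTGCTGCTGccgcccgcg
Every run lay within 1 exon and in the reading frame of leucine codons, starting between codon 6 and codon 21. Among all genes called lower with siCAG, 83 of 174 in PC3 (47.7%) and 78 of 668 in HeyA8 (11.7%) had a run of at least 4, against 2.43% and 2.26% of all genes tested.

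The members followed this sequence feature in part. EIF2AK3 was called lower in both lines. GARS and CRELD2 were called lower in PC3, and in HeyA8 their log2 fold changes were -1.20 (adjusted p = 0.12) and -0.84 (adjusted p = 0.0646). ERN1, with 5 CTG, had log2 fold changes of -0.08 in PC3 and 1.48 in HeyA8 and was called in neither. PSAT1 and PDIA6, called lower in PC3 with log2 fold changes of -0.25 and -0.93 in HeyA8, and HSP90B1 and SDF2L1, called lower in HeyA8 with -0.59 and -0.69 in PC3, are not among the 4 members with such a run. Whether siCAG acts on any of these sites was not tested.

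With siGGGGGC in PC3 genes of both arms were called. Of the 44 members, 4 were called higher than with siNT1, where 3.67% of all genes tested were, and 2 lower, where 6.00% were. All 4 higher genes were in the ATF4 arm, and each arm had 1 lower gene. Fitting the siNT1 and siGGGGGC libraries alone left 1 lower and 0 higher, where 2.48% and 0.512% of all genes tested were. The medians were 0.20 over the ATF4 arm and 0.18 over the ER chaperone arm, against 0.003 over all genes tested. Without the 24 h siGGGGGC library they were 0.123 and 0.036, and without the 48 h siGGGGGC library 0.306 and 0.154. Without the 24 h siNT1 library they were 0.253 and 0.139, and without the 48 h siNT1 library 0.235 and 0.085. Among markers scaled over all 16 libraries, CDH1 was at 1074.8 and 847.3 with siGGGGGC against 723.1 and 580.6 with siNT1. CDH2 was at 7091.7 and 6997.6 against 5017.5 and 5010.6, and EPCAM at 713.5 and 563.3 against 862.9 and 683. KRT8 was at 6722.9 and 3410 against 5323.9 and 5032.4, and KRT18 at 7699 and 4596.4 against 6206.1 and 6688.7. VIM was at 30809 and 31276.9 against 26554.9 and 26415.3, and FN1 overlapped. The part of these markers was not tested.

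DDIT4 was at 420.7 and 584.6 with siNT1 and 781.1 and 1942.2 with siGGGGGC (log2 fold change 1.33, SE 0.228, adjusted p = 0.02). PHGDH was at 2130 and 2483.3 with siNT1 and 3275.4 and 4087.2 with siGGGGGC (0.67, SE 0.158, adjusted p = 0.041). WARS, the tryptophanyl-tRNA synthetase, was at 2610.2 and 2327.2 and then 3836.2 and 4467 (0.75, SE 0.156, adjusted p = 0.0317). In these 3 each siGGGGGC library was above every other PC3 library. VLDLR, a lipoprotein receptor, was at 100.6 and 205.5 with siNT1 and 179.2 and 650.9 with siGGGGGC, so the groups overlapped, and its adjusted p of 0.0497 came from the fit with time as a term.

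HSP90B1 was at 53229.3 and 36880.2 with siNT1 and at 27133.9 and 16260.9 with siGGGGGC (-1.07, SE 0.165, adjusted p = 0.0165). HSPA5, the other major ER chaperone, was at 38719.5 and 30121.7 with siNT1 and 47717.9 and 31536.8 with siGGGGGC, and the groups overlapped. NARS, the asparaginyl-tRNA synthetase, was at 8455.3 and 7880.5 with siNT1 and 5807.9 and 4905.7 with siGGGGGC (-0.61, SE 0.14, adjusted p = 0.0384). Leaving out either siNT1 library left no member called. More members were called without the 24 h siGGGGGC library and fewer without the 48 h one, but the share of all genes called in those fits is not given.

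Against mock the count was larger. With siGGGGGC, 19 members were higher than in mock PC3, where 8.83% of all genes tested were higher, and 2 were lower, where 12.3% were. The 19 included 8 ER chaperone arm genes, among them DNAJB9 (1.60), a BiP co-chaperone, HYOU1 (1.02), the nucleotide exchange factor of BiP, HERPUD1 (0.93) and HSPA5 (0.93), together with ATF3 (3.54), DDIT4 (2.06) and SLC3A2 (1.38). HSP90B1 (-0.92) and NARS (-0.62) were the 2 lower genes. Of the 4 genes called higher against siNT1, DDIT4 and WARS (0.87) were also called against mock, while PHGDH (0.33, adjusted p = 0.165) and VLDLR (1.10, adjusted p = 0.0538) were not. The medians against mock were 0.58 over the ATF4 arm and 0.59 over the ER chaperone arm.

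In HeyA8, siGGGGGC gave 0 called members and 0% of all genes tested in either direction, with 1352 genes, 4 of them members, at an unadjusted p under 0.05. DESeq2 called 0 members, but edgeR on the siNT1 and siGGGGGC libraries alone called 3 lower and 3 higher, where 5.78% and 3.09% of all genes tested were. HSP90B1 was at 34497.4 and 50115.4 with siNT1 and 31143.6 and 28910.2 with siGGGGGC (-0.47, adjusted p = 0.54). DDIT4 was at 166.2 and 283.5 with siNT1 and at 135.8 and 861.9 with siGGGGGC, so the 24 h siGGGGGC library was the lowest and the 48 h library the highest of the 4. NUPR1 was at 0 in the 48 h siGGGGGC library and at 2.91 in the 24 h library, and no fold is given. The medians were -0.05 over the ATF4 arm and -0.32 over the ER chaperone arm, and against mock they were 0.066 and 0.056, both of the other sign. Without the 48 h siNT1 library the medians against siNT1 were 0.124 and -0.047, without the 24 h siNT1 library -0.178 and -0.305, without the 24 h siGGGGGC library 0.183 and -0.246, and without the 48 h siGGGGGC library -0.299 and -0.306. As an interaction, the siGGGGGC response was called different between the lines for 0 members and 0% of all genes tested, with 1054 genes at an unadjusted p under 0.05, and DESeq2 also called 0 members.

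**Figure D4:**
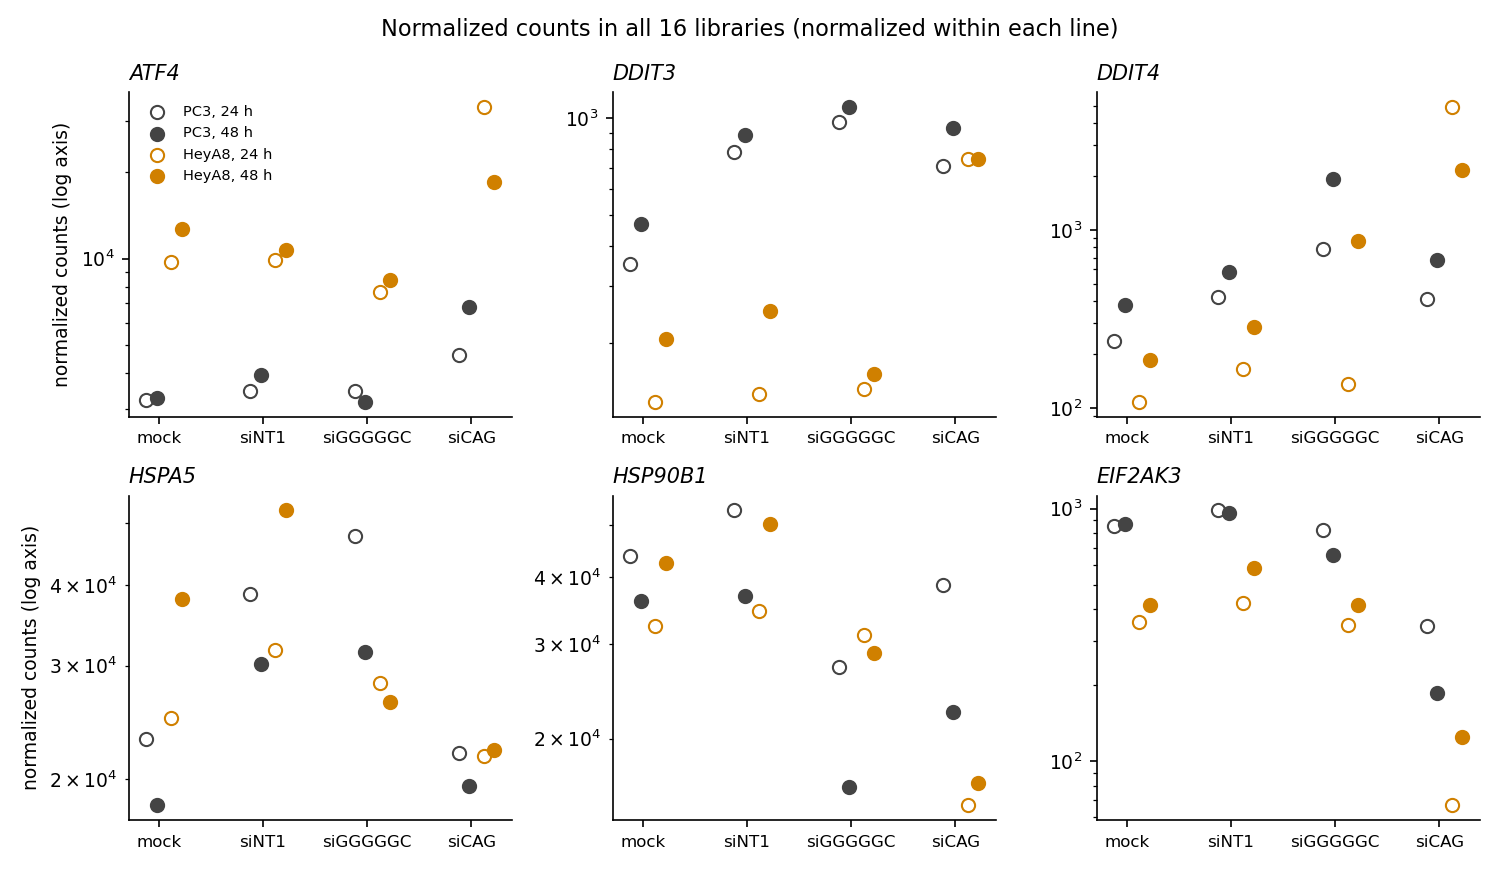
Normalized counts of ATF4, DDIT3, DDIT4, HSPA5, HSP90B1 and EIF2AK3 in all 16 libraries on log axes, by line and siRNA, with open circles for 24 h and filled circles for 48 h. The HeyA8 siCAG libraries are the highest of that line for ATF4, DDIT3 and DDIT4 and the lowest for HSPA5, HSP90B1 and EIF2AK3.

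The seed match of siGGGGGC is GCCCCC in 3′ untranslated regions, and 16 of the 44 members had at least 1, against 30.4% of the 13901 tested genes with a canonical transcript. Of the 6 members called with siGGGGGC in PC3, both lower genes and 2 of the 4 higher genes, WARS and VLDLR, had 1 site each, and DDIT4 and PHGDH had none. The sites of 1 gene that fell and 1 that rose are shown, 20 bases on the strand of the gene with the match in capitals.
HSP90B1, chr12:103947740-103947759, plus strand: tttggatGCCCCCtaatccc
WARS, chr14:100334371-100334390, minus strand: agcccatGCCCCCtcccaaa

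The wider pathway was read through 93 other genes in 6 lists, of which 91 were in the file, and is given against siNT1 except where mock is named. In HeyA8 with siCAG, 3 of 25 other ATF4 and CHOP targets were called higher, against 2.88% of all genes tested, and none lower, against 4.93%, with a median log2 fold change of 0.57. GDF15, a stress-induced secreted factor, was at 75.35 and 55.4 with siNT1 and 617.6 and 859.9 with siCAG (3.52, SE 0.381, adjusted p = 0.00735). SQSTM1 (p62), an autophagy receptor, was at 18592.8 and 17425 and then 62033.5 and 90674.7 (2.05, SE 0.268, adjusted p = 0.0122). ALDH1L2, a mitochondrial folate enzyme, was at 254 and 172.7 and then 894.5 and 792.4 (2.002, SE 0.255, adjusted p = 0.0114). For all 3 genes the siCAG libraries were the highest of the line.

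Of the 16 other folding and glycosylation genes tested, 2 were called lower with siCAG in each line, against 4.93% of all genes tested in HeyA8 and 1.16% in PC3, and they were the same genes, TXNDC5 and DNAJB11. TXNDC5 was at 482 and 644.2 with siNT1 and 82.48 and 24.82 with siCAG in HeyA8 (-3.46, SE 0.529, adjusted p = 0.0192). In PC3 it was at 447.3 and 457.2 with siNT1 and 89.98 and 60.41 with siCAG (-2.60, SE 0.231, adjusted p = 0.00273). DNAJB11, a BiP co-chaperone, fell by 1.10 on the log2 scale in HeyA8 (adjusted p = 0.0485) and by 0.78 in PC3 (adjusted p = 0.0486). TXNDC5 had the largest fall among the members and other pathway genes called in each line. The arginyl-tRNA synthetase RARS was the 1 of 15 other cytosolic tRNA synthetases called lower in HeyA8, a count near the 4.93% of all genes tested, at 5737.8 and 5810.9 with siNT1 and 1546.5 and 1761.6 with siCAG (-1.81, SE 0.208, adjusted p = 0.00861). None of the 11 genes for eIF2 kinases, eIF2 and its phosphatase, of the 17 translocon and ER-associated degradation genes tested or of the 6 genes for ATF6 and its proteases was called with siCAG in either line. As an interaction, GDF15 (-3.92, adjusted p = 0.0308) and ALDH1L2 (-2.67, adjusted p = 0.011) had lower siCAG responses in PC3 than in HeyA8, and with mock as the control the differences were -2.56 (adjusted p = 0.104) and -1.82 (adjusted p = 0.0499).

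With siGGGGGC in PC3 the lists held calls in both directions. CREB3L2, a membrane-bound transcription factor related to ATF6, was at 3000 and 2871.7 with siNT1 and 1287.8 and 939.5 with siGGGGGC (-1.41, SE 0.164, adjusted p = 0.00915), the largest fall among those called. Of the other ATF4 and CHOP targets, 1 of 25 was higher, GPT2 (0.91), an alanine aminotransferase, against 3.67% of all genes tested, and 3 were lower, against 6.00%, among them the proline synthesis enzyme PYCR1 (-1.06) and the glycine transporter SLC6A9 (-1.08). EIF2S1, the alpha subunit of eIF2 (0.61), was the 1 called of 11 genes for eIF2 kinases, eIF2 and its phosphatase. Of 17 translocon and ER-associated degradation genes tested, the segregase VCP (0.66) and the ER membrane protein WFS1 (0.63) were higher, and EDEM3 (-1.03) was lower. CREB3L2 was the 1 called of 6 genes for ATF6 and its proteases, and 1 of 16 folding and glycosylation genes was lower. Over all genes tested, 3.67% were higher and 6.00% lower. In HeyA8, none of these genes was called with siGGGGGC.

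Calls for time depended on the libraries fitted and the tool. Between 48 h and 24 h, with all 8 libraries of a line in edgeR's fit, 0 members were called in PC3, where 0.0264% of all genes tested were lower and 0% higher, and 0 in HeyA8, where 0% of all genes were called in either direction. At an unadjusted p under 0.05, 2032 genes in PC3 and 879 in HeyA8 differed, among them 11 members in PC3 and 1 in HeyA8, and DESeq2 called 3 members lower and 2 higher in PC3 and 0 in HeyA8. With edgeR on the mock and siNT1 libraries alone, 4 members were lower and 17 higher at 48 h in HeyA8, where 6.76% and 5.20% of all genes tested were, and 0 were called in PC3, where 0.0411% were lower and 0.0274% higher. In PC3, with all 8 libraries, the ER chaperone arm had 14 of 15 genes below 0 at 48 h with a median of -0.30, against -0.05 for the ATF4 arm and -0.01 for all genes tested.

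**Figure D5:**
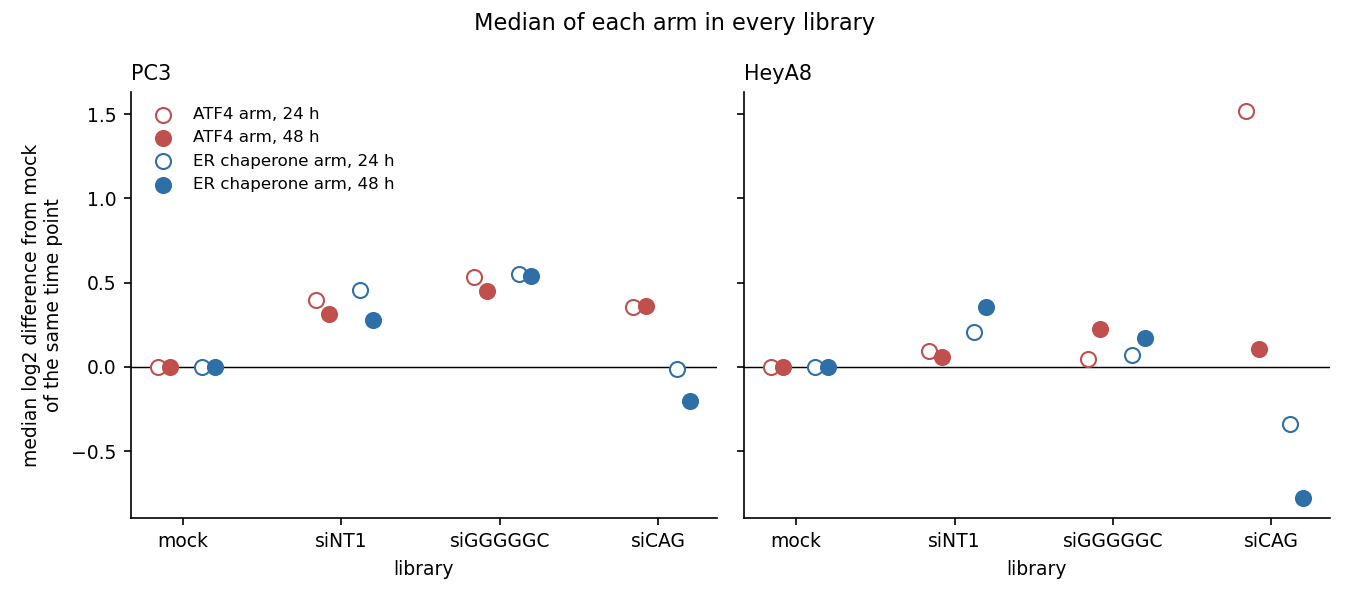
Median log2 ratio to the mock library of the same line and time for the ATF4 arm (27 genes) and the ER chaperone arm (15 genes) in each library, from log2(normalized count + 1), with mock at 0. The HeyA8 siCAG library at 24 h stands alone with the ATF4 arm at 1.516 and the ER chaperone arm at -0.341, and in PC3 both arms lie above 0 with siNT1 and siGGGGGC.

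The arm medians of single libraries were then set beside mock. In PC3 the ATF4 arm was at 0.40 and 0.32 with siNT1, 0.54 and 0.45 with siGGGGGC and 0.35 and 0.36 with siCAG at 24 h and 48 h. The ER chaperone arm was at 0.46 and 0.28 with siNT1 and 0.55 and 0.54 with siGGGGGC, but at -0.01 and -0.20 with siCAG. In PC3 the siGGGGGC values of the ATF4 arm were the highest of the 3 siRNAs at both times, and the ER chaperone arm was below 0 with siCAG alone. In HeyA8 the ATF4 arm was at 0.10 and 0.06 with siNT1, 0.05 and 0.22 with siGGGGGC and 1.52 and 0.10 with siCAG. The ER chaperone arm there was at 0.21 and 0.36 with siNT1, 0.07 and 0.17 with siGGGGGC and -0.34 and -0.78 with siCAG. These medians are a description of single libraries and carry no test.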

How the data were processed

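Per the labels and the study's methods, total RNA libraries depleted of ribosomal RNA were sequenced in pairs, aligned to hg38 (the submitters' processing notes name STAR and HTSeq) and counted per Ensembl gene, and the authors deposited whole-number counts for 26485 genes in 16 libraries. The study's methods give another siRNA amount than the labels, and siCAG is not described there. The counts were analysed with edgeR 4.0.16 in R 4.3.3: low genes were removed with filterByExpr, libraries were scaled by TMM, and each line was fitted over its 8 libraries by the quasi-likelihood method with terms for siRNA and time, with 15136 genes tested in PC3 and 13872 in HeyA8. Differences between lines came from 1 fit of all 16 libraries (15887 genes). Residual degrees of freedom were 3, 3 and 6, and p-values were adjusted over all genes tested. Single-time values are differences of log2(normalized count + 1). Members and lists were chosen with earlier results of these data known. The rule was to give values in every library for members with an adjusted p under 0.05. It was kept only for the libraries compared, in the siRNA comparisons against siNT1 and in siNT1 against mock. For members called between mock lines or against mock, mostly log2 differences are printed. Up to 4 other pathway genes per direction were named by largest change. Pseudogene copies of HSPA5, HSP90B1 and ATF4, and the readthrough gene that overlaps TXNDC5, can share reads with them. The fitting code was tested on simulated counts. Alternatives were no term for time, DESeq2 1.42.0, other filters and scaling, mock as control, fewer libraries and leaving out each library. No amino acid sequences were used.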

Additional observations from a re-analysis of the deposited data

Results flagged for a closer look

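Against siNT1, the siCAG response differed between the lines, by the interaction test in edgeR over 16 libraries, for 4 genes. The PC3 response was lower than the HeyA8 response by a log2 difference of -2.14 for DDIT3 (adjusted p = 0.0268), -1.997 for SESN2 (adjusted p = 0.041), -3.92 for GDF15 (adjusted p = 0.0308) and -2.67 for ALDH1L2 (adjusted p = 0.011). With siCAG these genes were above siNT1 in both HeyA8 libraries. In PC3 the siCAG and siNT1 libraries of DDIT3 overlapped, and SESN2 was at 411.2 and 418.9 with siCAG against 586.9 and 497.3 with siNT1. The siNT1 libraries were themselves above mock there, and against mock siCAG was called higher in PC3 for DDIT3 (1.00, adjusted p = 0.0276) and SESN2 (1.09, adjusted p = 0.035). With mock as the control the line differences were -1.30 for DDIT3 (adjusted p = 0.107), -1.13 for SESN2 (adjusted p = 0.171), -2.56 for GDF15 (adjusted p = 0.104) and -1.82 for ALDH1L2 (adjusted p = 0.0499), so only ALDH1L2 of the 4 passed.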

How the results depend on the processing

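Each of 38 counts of called members or arm medians was recomputed under alternatives, 470 values in all. Of these, 364 stayed within 1.5 times the count, or within the spread between replicates for a median, and 106 moved; none of the called genes that were recomputed changed sign. Members not called against siNT1 did: in PC3 with siCAG, when mock replaced siNT1, ATF3 went from -0.352 to 2.56, SESN2 from -0.384 to 1.089, DDIT3 from -0.042 to 0.995, ERN1 from -0.079 to 0.683 and HSPA5 from -0.718 to 0.02, among others. The causes of the moves below were not tested. With 2 libraries per condition and 3 residual degrees of freedom, leaving out 1 library left 0 calls in at least 1 case for each siRNA comparison that had any, the lone library then being assumed to vary like the other groups. The fit with siCAG left out, mock as the control of the line differences and the libraries left out of the time and line comparisons were chosen after seeing the data.

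Without the replicate block (no term for time), the PC3 siGGGGGC calls were 0 lower and 1 higher, the PC3 siCAG lower calls 3, the PC3 siNT1 higher calls 1 with an ATF4 arm median of 0.3, the HeyA8 siCAG lower calls 5 and the line difference with siCAG 1 lower. The block changed no other count by over 1.5 times. DESeq2 called 8 lower for PC3 siCAG, 8 higher for PC3 siNT1, 3 lower and 2 higher for PC3 time, 10 lower and 13 higher for HeyA8 siCAG and 7 lower for the line difference with siCAG. The share of all genes that it called is not given.

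Fitting only the 4 libraries compared gave 1 lower and 0 higher for PC3 siGGGGGC, 19 lower and 1 higher for PC3 siCAG, 9 higher for PC3 siNT1, 3 lower and 3 higher for HeyA8 siGGGGGC, 4 higher for HeyA8 siCAG, and 2 lower and 15 higher for HeyA8 siNT1. With only the mock and siNT1 libraries, HeyA8 time had 4 lower and 17 higher. With siCAG left out of the fit, PC3 siNT1 had 1 higher.

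With mock as the control, PC3 siGGGGGC had 19 higher, with medians of 0.579 (ATF4 arm) and 0.588 (ER chaperone arm), and PC3 siCAG had 3 lower and 5 higher, with medians of 0.246 and -0.028. The HeyA8 siGGGGGC medians were then 0.066 and 0.056, and the line difference with siCAG had 0 lower. With 24 h libraries alone the ATF4 arm median was 0.311 for PC3 siGGGGGC and 0.399 for PC3 siNT1, and the ER chaperone arm median was -0.169 for HeyA8 siGGGGGC. With 48 h libraries alone the ATF4 arm median was 0.315 for PC3 siNT1, 0.108 for HeyA8 siGGGGGC, 0.182 for HeyA8 siCAG and 0.059 for HeyA8 siNT1, and the ER chaperone arm median was 0.066 for PC3 siGGGGGC and -0.224 for HeyA8 siGGGGGC.

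Leaving out each library in turn, PC3 siGGGGGC had 0 to 6 lower and 0 to 8 higher, with medians of 0.123 to 0.306 (ATF4 arm) and 0.036 to 0.154 (ER chaperone arm). PC3 siCAG had 0 to 2 lower and an ER chaperone arm median of -0.678 to -0.536. PC3 siNT1 had 0 higher in every case, with medians of 0.273 to 0.471 and 0.254 to 0.483. HeyA8 siGGGGGC medians were -0.299 to 0.183 and -0.306 to -0.047. HeyA8 siCAG had 0 to 18 lower and 0 to 23 higher, with an ATF4 arm median of 0.198 to 1.499. HeyA8 siNT1 medians were -0.118 to 0.295 and 0.144 to 0.463. The line difference with siCAG had 0 to 20 lower and 0 to 3 higher, and mock PC3 against mock HeyA8 had 5 to 8 lower and 3 to 5 higher.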
